A study of Mus musculus with 6 samples.

Results

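The 8 genes described here encode checkpoint receptors, costimulatory receptors and regulatory proteins of T cells: Pdcd1, Ctla4, Lag3, Tigit, Icos, Tnfrsf4, Foxp3 and Il2ra. They were chosen by symbol from the 31053 genes listed for both tissues, and were measured in cells holding at least 2 UMIs (unique molecular identifiers, each standing for 1 captured mRNA) of Cd3d, Cd3e and Cd3g together, which encode invariant chains of the T cell receptor complex. These cells are called T cells below, and they numbered 783 of 24212 kept kidney cells and 867 of 17562 kept tumor cells. Kidney came from male C57BL/6 mice of 12 weeks, and mammary tumor from female MMTV-PyMT mice of 10 weeks, in which a viral promoter drives the polyoma middle T oncogene in mammary epithelium. Minced tissue was processed as a 60 min control digest or on a microfluidic platform whose cells were collected at 15 and then 60 min intervals, with collagenase throughout, and live cells were sorted by exclusion of SytoxBlue. There was 1 library for each of the 3 conditions of each tissue, so no test between conditions was run. By the study's methods, sequencing used 1 replicate, and the control and platform conditions of a replicate shared a source mouse. Tissue, strain, sex, age and animal differed together and cannot be told apart.

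Engagement of the T cell receptor switches on both brakes and accelerators of the response. PD-1 (Pdcd1), CTLA-4, LAG-3 and TIGIT are inhibitory receptors that are induced or recruited after activation, ICOS and OX40 (Tnfrsf4) are costimulatory receptors that prolong it, and CD25 (Il2ra) is the alpha chain that completes the high-affinity receptor for interleukin-2. FOXP3 is the lineage transcription factor of regulatory T cells, which carry CD25, CTLA-4, ICOS and OX40 at high levels and are a known part of the infiltrate of mammary tumors. In the tissue, several ligands of these receptors are displayed by myeloid, dendritic and endothelial cells.

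In the GENCODE annotation of GRCm38 (mm10), Ctla4 (chr1:60887000-60915832, plus strand) and Icos (chr1:60977927-61000320, plus strand) were direct neighbours, 62.1 kb apart, and the next gene on the other side of Ctla4 was Cd28, the founding costimulatory receptor of this family. Pdcd1 lay elsewhere on the chromosome (chr1:94038305-94052553, minus strand). Tnfrsf4 (chr4:156013843-156016612, plus strand) was followed after 9.55 kb by Tnfrsf18, which encodes the related receptor GITR, and Lag3 (chr6:124904361-124911705, minus strand) lay 16.1 kb from Cd4. Tigit (chr16:43648867-43664146, minus strand), Foxp3 (chrX:7573644-7595245, plus strand) and Il2ra (chr2:11642807-11693193, plus strand) had no other gene of these lists beside them. Foxp3 shared 1064 exonic bases with Flicr on the same strand and 1179 with Ccdc22 and 532 with Ppp1r3f on the other, and the strand setting of the counting is not given in the sources used here, so Foxp3 counts carry that uncertainty. The other 7 genes overlapped no listed gene.

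Pdcd1, Ctla4 and Il2ra were among 5 genes that were higher in the 60 min than in the 15 min platform library of both tissues, as described further on, and the 250 bases before their start are therefore shown. They were taken from RefSeq (GRCm38.p6), which held such windows for 6 of the 8 genes and none for Lag3 and Icos. Capitals mark TTTCC, the reverse complement of GGAAA, the core recognised by the NFAT factors that act downstream of the T cell receptor. The windows are Pdcd1 chr1:94052554-94052803 (minus strand), Ctla4 chr1:60908775-60909024 (plus strand, inside the longest annotated Ctla4 span but in no exon) and Il2ra chr2:11642542-11642791 (plus strand).
Pdcd1: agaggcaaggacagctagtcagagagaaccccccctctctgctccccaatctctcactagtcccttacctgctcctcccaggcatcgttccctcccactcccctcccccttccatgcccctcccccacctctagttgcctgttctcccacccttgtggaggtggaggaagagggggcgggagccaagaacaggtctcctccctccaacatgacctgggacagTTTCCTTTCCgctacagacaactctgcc
Ctla4: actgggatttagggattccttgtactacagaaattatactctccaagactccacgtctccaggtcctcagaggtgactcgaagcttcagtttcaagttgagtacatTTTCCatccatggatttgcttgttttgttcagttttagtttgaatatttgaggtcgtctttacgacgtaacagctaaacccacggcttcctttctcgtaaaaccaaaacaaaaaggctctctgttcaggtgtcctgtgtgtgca
Il2ra: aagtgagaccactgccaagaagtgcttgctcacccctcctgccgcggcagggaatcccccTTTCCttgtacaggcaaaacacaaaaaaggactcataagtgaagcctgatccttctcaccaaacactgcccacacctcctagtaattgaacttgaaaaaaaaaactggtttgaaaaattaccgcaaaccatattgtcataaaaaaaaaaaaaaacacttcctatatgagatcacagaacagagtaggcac
The core GGAAA on either strand was found 2 times before Pdcd1, in adjacent matches that share no base, 1 time each before Ctla4 and Il2ra, and also in the windows of Tnfrsf4, Tigit and Foxp3. Of 32841 windows of this length in the table, 55.6% held it. The AP-1 motif TGANTCA was in none of the windows of the 6 genes and in 6.75% of all windows. The Tnfrsf4 window is not shown because 166 of its bases lie in an exon of Sdf4.

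At least 1 UMI of a T cell receptor constant gene was present in 95.5 to 99.2% of the gated cells of each library. Per library, 187, 120 and 476 kidney T cells (control, 15 min, 60 min) and 305, 228 and 334 tumor T cells gave pools of 677157 to 2609542 UMIs. Median UMIs per T cell were 5216, 5383.5 and 5253.5 in kidney and 8245, 7202 and 5147.5 in the tumor, so the tumor control cells were the deepest. Cells with a UMI of Trdc, the constant gene of the gamma-delta receptor, made up 5.25 to 9.17% of kidney T cells and 18.3 to 38.7% of tumor T cells. Between 6 and 50 T cells of a library also passed the marker gate of a class other than NK cells, and 17 to 60 passed that of NK cells. Among all deposited barcodes, kidney libraries shared 53 to 211 pairwise, against 13 to 34 in every other pair of libraries, but only 1 barcode was shared among kept T cells.

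Levels below are UMIs of a gene per 1000000 UMIs of the pooled T cells (CPM), with 95% Poisson intervals where given, and ratios carry exact conditional intervals. Both cover counting error only, and not the spread between cells or the difference between animals. The intervals treat UMIs as independent, although UMIs can gather in few cells (359 of Tnfrsf4 in 48 of 305 tumor control T cells). The kidney and tumor matrices were made and equalised for depth separately, so levels set across the tissues also carry any difference between those runs. A gene was counted as higher in the tumor when its 3 tumor libraries all lay above its 3 kidney libraries and the mean was at least 2-fold higher. Of the 8 genes, 4 met this rule (Foxp3, Il2ra, Tnfrsf4 and Lag3), against 11.7% of the 11279 genes with at least 20 UMIs. None was higher in kidney by the reverse rule, which 6.44% of all genes met. The median log2 ratio, tumor over kidney, was 1.41 over the 8 genes and 0.13 over all genes. Scaled per 1000 CD3 UMIs in place of all UMIs, the median of all genes was -0.32 and 6.97% were higher in the tumor and 12.7% in kidney, while 4 of the 8 genes still met the rule in the tumor.

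**Figure D1:**
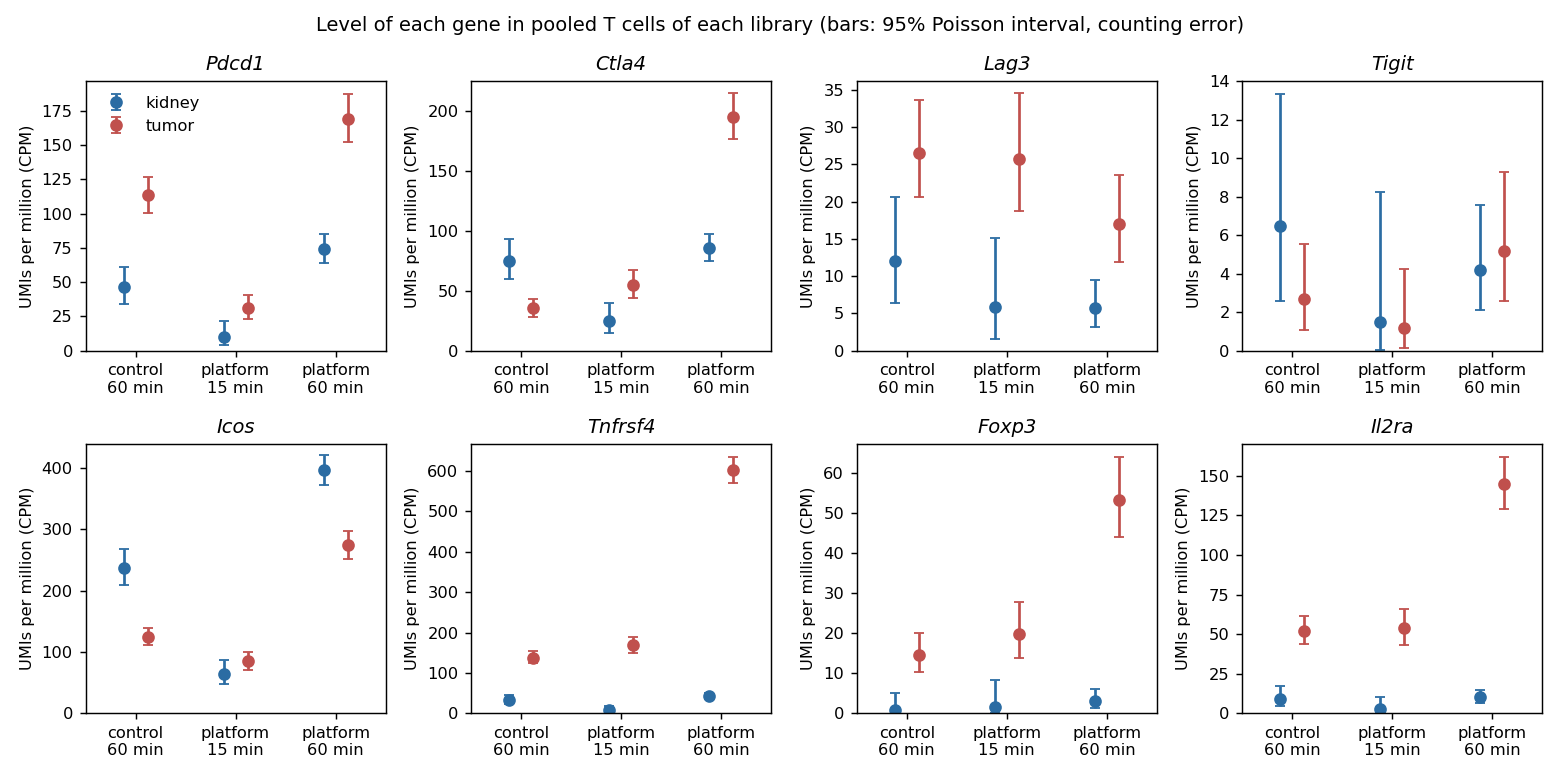
CPM (vertical axis, from 0) of each gene in the pooled T cells of the 6 libraries (horizontal axis), kidney in blue and tumor in red, with bars for the 95% Poisson interval. Tnfrsf4, Foxp3, Il2ra and Lag3 lie higher in all 3 tumor libraries than in any kidney library, and Pdcd1, Ctla4, Icos and Tigit overlap between the tissues.

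The regulatory genes had the largest ratios. Foxp3 stood at 0.925, 1.48 and 3.07 CPM in kidney (1, 1 and 8 UMIs) and at 14.6, 19.9 and 53.3 CPM in the tumor (38, 34 and 113 UMIs). All tumor libraries were above all kidney libraries, and the ratio of the means was 16.1. Kidney Foxp3 rested on 10 UMIs in 9 cells, so the matched ratios were wide: 15.8 (interval 2.67 to 641) in the controls, 13.5 (2.26 to 547) at 15 min and 17.4 (8.54 to 41.3) at 60 min. Il2ra, whose product gives regulatory and freshly activated T cells their affinity for interleukin-2, stood at 9.25, 2.95 and 10.3 CPM in kidney and at 52.0, 53.8 and 145 CPM in the tumor. The groups did not overlap, and the ratio of the means was 11.1. The matched ratios of Il2ra were 5.62 (2.96 to 12.0) in the controls, 18.2 (4.90 to 153) at 15 min and 14.0 (9.44 to 21.6) at 60 min. The tumor 60 min library was the highest for both genes, and without it the log2 ratio of the means was 3.24 in place of 4.01 for Foxp3 and 2.81 in place of 3.47 for Il2ra. Without the kidney 60 min library, that of Foxp3 was 4.61.

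Of the costimulatory receptors, Tnfrsf4 separated the tissues and Icos did not. Tnfrsf4 stood at 33.3, 7.38 and 42.2 CPM in kidney and at 138, 168 and 602 CPM in the tumor, a ratio of means of 11.0. The matched ratios were 4.15 (2.94 to 6.02), 22.8 (9.66 to 70.8) and 14.3 (11.7 to 17.5). Without the tumor 60 min library, the log2 ratio of the Tnfrsf4 means was 2.47 in place of 3.46. Icos was abundant in both tissues, at 238, 65.0 and 396 CPM in kidney and at 124, 84.8 and 274 CPM in the tumor. These ranges overlapped, and the tumor lay at 0.523 of kidney in the controls (0.443 to 0.619), at 1.31 (0.926 to 1.87) at 15 min and at 0.692 (0.624 to 0.767) at 60 min.

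Among the inhibitory receptors, Lag3, which binds MHC class II, was at 12.0, 5.91 and 5.75 CPM in kidney and at 26.6, 25.7 and 17.0 CPM in the tumor. The ratio of means was 2.93 and the groups did not overlap. Without Trdc-positive cells, an alternative added after the data had been seen, Lag3 stood at 12.9, 6.45 and 6.07 CPM against 14.7, 14.7 and 12.0 CPM, and the groups overlapped. Pdcd1 was at 46.2, 10.3 and 74.0 CPM in kidney and at 113, 31.0 and 169 CPM in the tumor. The tumor 15 min library lay below the 2 longer kidney digests, so the rule was not met, although each matched ratio was above 1: 2.45 (1.81 to 3.37) in the controls, 3.00 (1.36 to 7.82) at 15 min and 2.29 (1.91 to 2.74) at 60 min.

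Ctla4, which competes with CD28 for its ligands, was at 74.9, 25.1 and 85.5 CPM in kidney and at 35.4, 55.0 and 195 CPM in the tumor. It was lower in the tumor in the controls (ratio 0.473, 0.347 to 0.645) and higher at 15 min (2.19, 1.30 to 3.92) and at 60 min (2.29, 1.94 to 2.70). Tigit was scarce everywhere, with 19 UMIs in kidney and 20 in the tumor over all T cells. Its highest level was 6.47 CPM, in the kidney control, and no matched ratio had an interval that left out 1, so a difference between tissues was not detectable at this depth.

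Shares of T cells with a UMI also depend on depth and were therefore thinned. Tnfrsf4 was found in 6.95, 2.50 and 9.03% of kidney T cells and in 15.7, 18.0 and 49.4% of tumor T cells. After each cell was thinned to 1000 UMIs these shares were 3.21, 0.833 and 4.04% against 9.76, 12.7 and 36.8%. Foxp3 was found in 0.535, 0.833 and 1.47% of kidney T cells and in 6.56, 8.33 and 19.2% of tumor T cells, and in 3.70, 4.39 and 8.81% of the latter after thinning. Epithelial cells, which should lack these genes, held a Tnfrsf4 UMI in 0.0413 to 0.955% of cells and a Foxp3 UMI in at most 0.0807%, at median depths of 5567 to 9881.5 UMIs per cell. In kidney epithelial cells the Foxp3 share was 0 to 0.0276%, below the kidney T cell shares, which rested on 9 cells. Per positive cell, Tnfrsf4 averaged 7.02 to 7.73 UMIs in the tumor and 1.67 to 2.77 in kidney.

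Other genes of these pathways were described by the same rule. Of 13 further regulatory T cell genes tested, 5 were higher in the tumor and 0 in kidney, led by Itgae (CD103, an integrin of tissue-resident T cells; 44.9-fold), Il1rl1 (the interleukin-33 receptor; 18.9-fold), Ikzf4 (the transcription factor Eos; 12.9-fold) and Capg (7.48-fold). Itgae is also carried by gamma-delta and CD8 T cells. Of 10 other costimulatory genes, 3 were higher in the tumor and 3 in kidney. Tnfrsf9 (4-1BB) was 27.3-fold and Tnfrsf14 6.43-fold higher in the tumor, and Cd40lg 5.42-fold and Slamf6 4.34-fold higher in kidney. Kidney counts were low for Tnfrsf14 (2, 0 and 3 UMIs), Ikzf4 (2, 3 and 3), Il1rl1 (3, 0 and 17) and Itgae (4, 7 and 12). In the controls the Tnfrsf14 ratio was 2.50 (0.556 to 23.0), an interval that included 1. Of 10 other genes of inhibitory receptors and enzymes, 5 were higher in the tumor and 2 in kidney. Cd244 (8.40-fold), Klrg1 (4.47-fold) and Nt5e (the enzyme CD73, 3.02-fold) were among the former, and Btla (3.55-fold) among the latter. Naive and central memory genes went the other way: 0 of 10 were higher in the tumor and 9 in kidney, with Dapl1 9.31-fold, Lef1 7.79-fold and S1pr1 (a receptor for exit from lymphoid organs) 6.54-fold higher there.

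Of 8 genes of interleukin-2 signalling, Socs1 (2.28-fold) and Cish (2.16-fold), feedback inhibitors of the receptor, were higher in the tumor and 0 in kidney. Il2rb, the beta chain that Il2ra joins, had a ratio of 1.70 and did not meet the rule. Of 7 genes linked to exhaustion, Rgs16 was higher in the tumor (5.04-fold), and Prdm1 (2.66-fold) and Cxcr6 (2.64-fold) were higher in kidney. Of the genomic neighbours, Cd28 was at 358, 344 and 578 CPM in kidney and at 73.2, 91.2 and 254 CPM in the tumor, lower in every tumor library than in any kidney library, unlike Ctla4. Tnfrsf18 was at 166, 115 and 141 CPM in kidney and at 295, 272 and 459 CPM in the tumor, higher in the tumor like Tnfrsf4 but with smaller differences. Of 8 proliferation genes, 5 were higher in the tumor and 0 in kidney.

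The kidney 15 min library stood apart from the other kidney libraries. Against the control, Pdcd1 was 4.47-fold lower (ratio 0.224, 0.0855 to 0.495), Ctla4 2.98-fold lower (0.335, 0.186 to 0.570), Icos 3.66-fold lower (0.273, 0.194 to 0.377) and Tnfrsf4 4.51-fold lower (0.222, 0.0679 to 0.567). All 4 genes that had at least 20 UMIs in this pair were thus past 2-fold lower, against 6.91% of 6685 genes, and 0 were past 2-fold higher, against 3.08%. The median log2 ratio was -2.02 over the 4 and -0.0031 over all genes. Lag3 (4 against 13 UMIs), Tigit (1 against 7), Foxp3 (1 against 1) and Il2ra (2 against 10) had too few UMIs.

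The kidney 60 min interval was closer to the control. Icos was 1.67-fold higher (1.45 to 1.92), Pdcd1 1.60-fold higher (1.17 to 2.23), and Ctla4 (1.14, 0.881 to 1.49), Tnfrsf4 (1.27, 0.862 to 1.90) and Il2ra (1.12, 0.525 to 2.59) had intervals that included 1. Of 6 genes compared, 0 were past 2-fold higher, against 3.74% of 8647 genes. Only Lag3 was past 2-fold lower (2.22% of all genes), on 15 against 13 UMIs, with a ratio of 0.478 and an interval of 0.212 to 1.09.

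The 2 platform intervals, compared after the data had been seen, are successive collections from the same loaded tissue. In kidney, all 5 genes with enough UMIs were past 2-fold higher at 60 than at 15 min, against 9.98% of 8348 genes, and 0 were lower, against 3.67%. Pdcd1 was 7.15-fold higher (3.41 to 18.0), Icos 6.10-fold (4.51 to 8.45), Tnfrsf4 5.71-fold (2.37 to 17.9), Ctla4 3.40-fold (2.08 to 5.95) and Il2ra 3.50-fold, the last on 27 against 2 UMIs with an interval of 0.880 to 30.4.

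**Figure D2:**
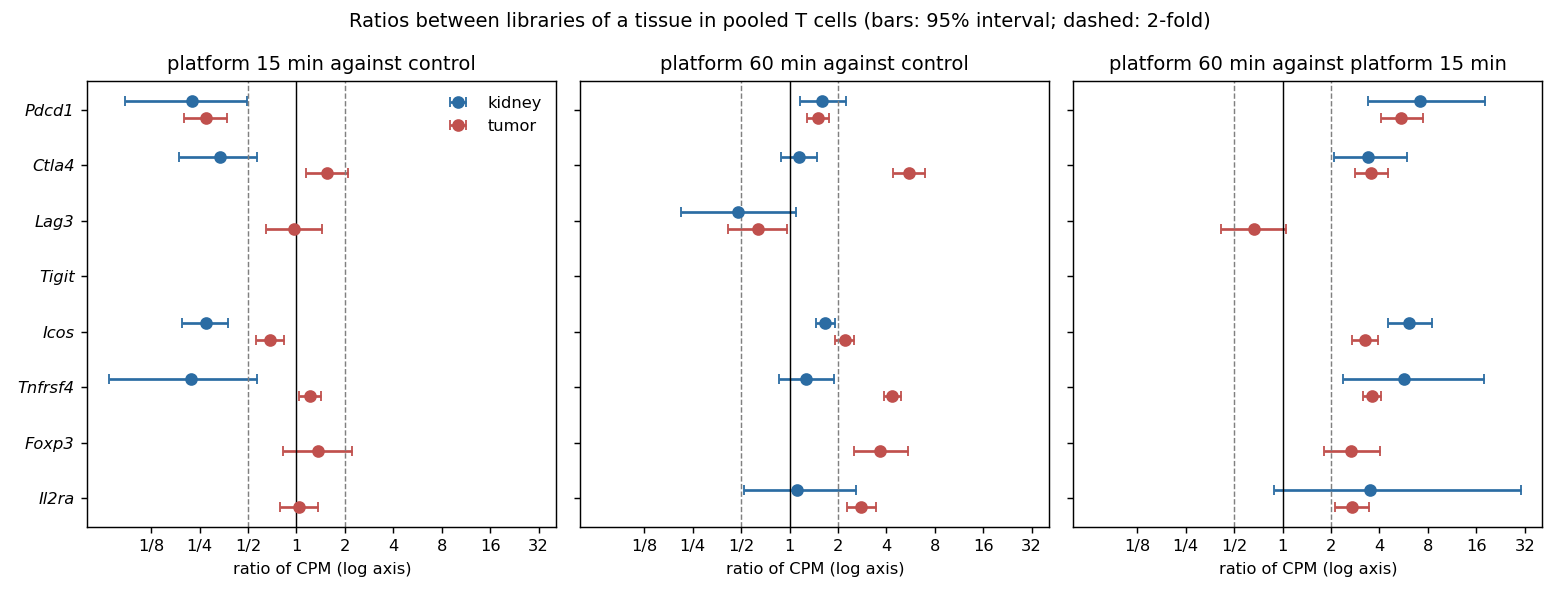
Ratios of CPM between libraries of 1 tissue (horizontal log axis, bars for the 95% interval) for each gene with at least 20 UMIs in the pair, kidney in blue and tumor in red; the solid line marks no difference and the dashed lines 2-fold. In the right panel every compared gene but tumor Lag3 lies past 2-fold higher at 60 than at 15 min, and in the left panel the kidney points lie past 2-fold lower while most tumor points lie near 1.

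In the tumor the order of the libraries differed. Against the control, the 60 min interval was higher for Ctla4 (5.52-fold, 4.39 to 6.99), Tnfrsf4 (4.35-fold, 3.87 to 4.91), Foxp3 (3.65-fold, 2.50 to 5.41), Il2ra (2.79-fold, 2.27 to 3.44) and Icos (2.21-fold, 1.92 to 2.53). These 5 of 7 genes compared were past 2-fold higher, against 9.25% of 9363 genes, and 0 were lower, against 3.68%. Pdcd1 was 1.49-fold higher (1.28 to 1.75), and Lag3 had a ratio of 0.640 (0.415 to 0.971). Il2ra, Ctla4 and Tnfrsf4 are all induced by activation and all carried by regulatory T cells.

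At 15 min the member furthest from the tumor control was Pdcd1, which was 3.65-fold lower (ratio 0.274, 0.200 to 0.368). That was 1 of 7 genes past 2-fold lower, against 3.61% of 9226 genes, and 0 were higher, against 9.04%. Ctla4 (1.55, 1.15 to 2.09), Tnfrsf4 (1.22, 1.04 to 1.43), Foxp3 (1.36, 0.830 to 2.22), Il2ra (1.04, 0.785 to 1.36), Lag3 (0.969, 0.648 to 1.43) and Icos (0.682, 0.557 to 0.832) were within 2-fold. Between the platform intervals, 6 of 7 genes were past 2-fold higher at 60 min, against 6.09% of 9280 genes, and 0 were lower, against 5.85%. Pdcd1 was 5.45-fold higher (4.08 to 7.42), Tnfrsf4 3.57-fold (3.14 to 4.08), Ctla4 3.56-fold (2.84 to 4.50), Icos 3.23-fold (2.69 to 3.91), Il2ra 2.69-fold (2.13 to 3.44) and Foxp3 2.68-fold (1.81 to 4.06), and Lag3 had a ratio of 0.660 (0.413 to 1.05).

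Stress and immediate early genes, a list of 12 that includes Fosb, Atf3, Egr1 and Junb, differed in several of the same comparisons. In kidney 7 of 12 were past 2-fold lower at 15 min than in the control (6.91% of all genes). There 7 were past 2-fold higher at 60 than at 15 min (9.98% of all genes). In the tumor 8 were past 2-fold higher at 60 min than in the control (9.25% of all genes), and 6 were at 15 min (9.04%). Between the tumor platform intervals 4 were past 2-fold higher at 60 min (6.09%). The summed level of the list was 9216, 4578 and 9581 CPM in kidney and 6435, 9026 and 13445 CPM in the tumor. Macrophage and monocyte markers summed to 219, 5.91 and 251 CPM in kidney T cells and to 117, 109 and 975 CPM in tumor T cells, and fibroblast markers to 499 and 773 CPM in the 2 tumor platform libraries against 16.2 CPM in the control. Granulocyte markers went the other way in tumor T cells, at 261, 177 and 11.8 CPM (control, 15 min, 60 min). The part of the stress genes and of these markers in the differences of the 8 genes was not tested.

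The kidney difference between the 15 min interval and the control was present within some subsets of T cells, and in others the UMIs were too few. Subsets were set by UMIs of Cd4 and of Cd8a or Cd8b1, and Cd4 was sparse, being found in 6.89 to 19.2% of T cells. Icos at 15 min lay at 0.292 of the control in Cd4 cells (0.114 to 0.668), at 0.378 in Cd8 cells (0.212 to 0.640) and at 0.208 in cells with none of Cd4, Cd8 and Trdc (0.113 to 0.355). Pdcd1 lay at 0.170 in Cd8 cells (3 against 27 UMIs, 0.0331 to 0.553) and at 0.222 in cells with none of the markers (2 against 18 UMIs, 0.0250 to 0.927). In Cd4 cells Pdcd1 had 2 against 4 UMIs (0.456, 0.0413 to 3.18), and in Trdc cells without Cd4 and Cd8 the Icos ratio was 0.398 (0.0738 to 1.41), so both intervals included 1. Ctla4 lay at 0.270 in Cd4 cells (0.106 to 0.612), while in Cd8 cells its interval included 1 (0.184 to 1.55). The lower Pdcd1 of the tumor 15 min library was likewise present in Cd4 cells (0.187, 0.0788 to 0.396), in Cd8 cells (0.114, 0.0405 to 0.262) and in Trdc cells without Cd4 and Cd8 (0.108, 0.0391 to 0.241), but in cells with none of the markers the ratio was 0.864 (0.522 to 1.41). In kidney at 60 min, Ctla4 lay at 0.441 of the control in Cd4 cells (54 against 27 UMIs, 0.273 to 0.729). In Cd8 cells (1.68, 0.953 to 3.12) and in cells with none of the markers (1.24, 0.842 to 1.85) its interval included 1.

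Within tumor Cd4 cells, the ratios of the 60 min interval to the control had intervals that included 1. Tnfrsf4 was at 1420 CPM in the control and 1307 CPM at 60 min (ratio 0.920, 0.761 to 1.12), Ctla4 at 324 and 326 CPM (1.01, 0.677 to 1.53), Il2ra at 286 and 250 CPM (0.874, 0.568 to 1.38) and Foxp3 at 153 and 108 CPM (0.706, 0.379 to 1.37). The share of tumor T cells that were Cd4 cells was 6.89% (control), 11.4% (15 min) and 16.5% (60 min). In cells with none of Cd4, Cd8 and Trdc, Ctla4 was 4.51-fold (3.28 to 6.33), Pdcd1 3.36-fold (2.42 to 4.76), Tnfrsf4 2.98-fold (2.56 to 3.49) and Foxp3 2.42-fold (1.48 to 4.11) higher at 60 min. In Cd8 cells Pdcd1 went the other way, with a ratio of 0.297 (10 against 66 UMIs, 0.136 to 0.581), and Ctla4 had a ratio of 5.49 (14 against 5 UMIs, 1.87 to 19.5). In Trdc cells without Cd4 and Cd8, Ctla4 had a ratio of 3.75 (15 against 8 UMIs, 1.49 to 10.2) and Tnfrsf4 one of 66.0 (33 against 1 UMIs, 11.0 to 2685). The Cd8 and Trdc ratios rest on the few UMIs given. The tumor platform intervals were also compared within subsets (60 over 15 min). In Cd4 cells, ratio intervals included 1 for Ctla4 (1.31, 0.888 to 1.97), Foxp3 (1.11, 0.581 to 2.24) and Il2ra (1.06, 0.703 to 1.64). Those of Pdcd1 (3.92, 1.96 to 8.89), Tnfrsf4 (2.10, 1.67 to 2.67) and Icos (1.71, 1.20 to 2.51) lay above 1. In cells with none of the markers, Ctla4 (3.22), Il2ra (2.84) and Foxp3 (2.34) had ratios with intervals above 1. Cd4 was sparse, so cells with none of the markers can include Cd4 T cells and are not a lineage of their own. The part of the makeup in the pooled differences was not tested.

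Levels differed between the lineages. In tumor Cd8 cells Tnfrsf4 was at 1.13, 9.96 and 11.1 CPM and Il2ra at 6.79, 8.54 and 11.1 CPM (control, 15 min, 60 min), against 622 to 1420 CPM and 235 to 286 CPM in Cd4 cells. Foxp3 had 0, 1 and 2 UMIs in tumor Cd8 cells and 16, 14 and 34 in Cd4 cells. Lag3 was at 29.4, 35.6 and 33.2 CPM in tumor Cd8 cells and at 41.0, 53.9 and 31.5 CPM in Trdc-positive cells. In tumor Cd4 cells it had 3, 0 and 1 UMIs (28.6, 0 and 3.17 CPM), so it was lower there in the platform libraries but not in the control. Pdcd1 was in both lineages, and Trdc-positive tumor cells held it at 144, 14.5 and 120 CPM. In kidney, Tnfrsf4 had 0, 0 and 2 UMIs in Cd8 cells and 12, 1 and 35 in Cd4 cells, while Icos was in both (167, 62.9 and 253 CPM in Cd8, 258, 75.4 and 465 CPM in Cd4 cells).

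Foxp3-positive T cells, with at least 1 Foxp3 UMI, numbered 20, 19 and 64 in the tumor libraries and 1, 1 and 7 in kidney, where they were too few to compare. The 9 kidney cells held 6, 3 and 30 UMIs of Tnfrsf4 and 0 of Pdcd1. In every tumor library the positive cells held Tnfrsf4, Ctla4, Il2ra, Pdcd1 and Icos at higher levels than the other T cells. Tnfrsf4 was at 2483, 2515 and 1827 CPM in positive cells against 58.9, 58.2 and 350 CPM in negative cells, ratios of 42.1 (34.0 to 52.4), 43.2 (33.6 to 55.9) and 5.23 (4.67 to 5.84). It had a UMI in every Foxp3-positive cell of the tumor (20 of 20, 19 of 19 and 64 of 64). The lower ratio at 60 min came with a higher level in negative cells.

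Ctla4 was at 471, 730 and 500 CPM in Foxp3-positive cells against 20.7, 23.3 and 133 CPM in negative cells, and Il2ra at 565, 495 and 373 CPM against 34.6, 33.1 and 97.9 CPM. Pdcd1 was at 553, 287 and 437 CPM against 98.3, 19.0 and 114 CPM, and Icos at 718, 612 and 473 CPM against 104, 60.0 and 233 CPM. All 5 genes kept intervals of the ratio above 1 in the 3 libraries, the smallest ratio being that of Icos at 60 min (2.02, 1.68 to 2.43). Lag3 did not share this pattern, with 3, 0 and 1 UMIs in positive cells against 66, 44 and 35 in negative cells, and at 60 min its ratio was 0.139 (0.00341 to 0.825). Cd8a had 0 UMIs in positive cells of each library, and the upper bounds of its ratio were 0.168, 0.128 and 0.0484. Of the negative cells, 41.4, 30.1 and 21.9% held a Trdc UMI and 29.8, 34.4 and 17.8% a Cd8a UMI. The ratios are therefore not a comparison within Cd4 cells. Positive cells were shallower in each library (medians of 2788, 2846 and 3434 UMIs against 8512, 7393 and 5481), and shares of cells are therefore not compared.

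**Figure D3:**
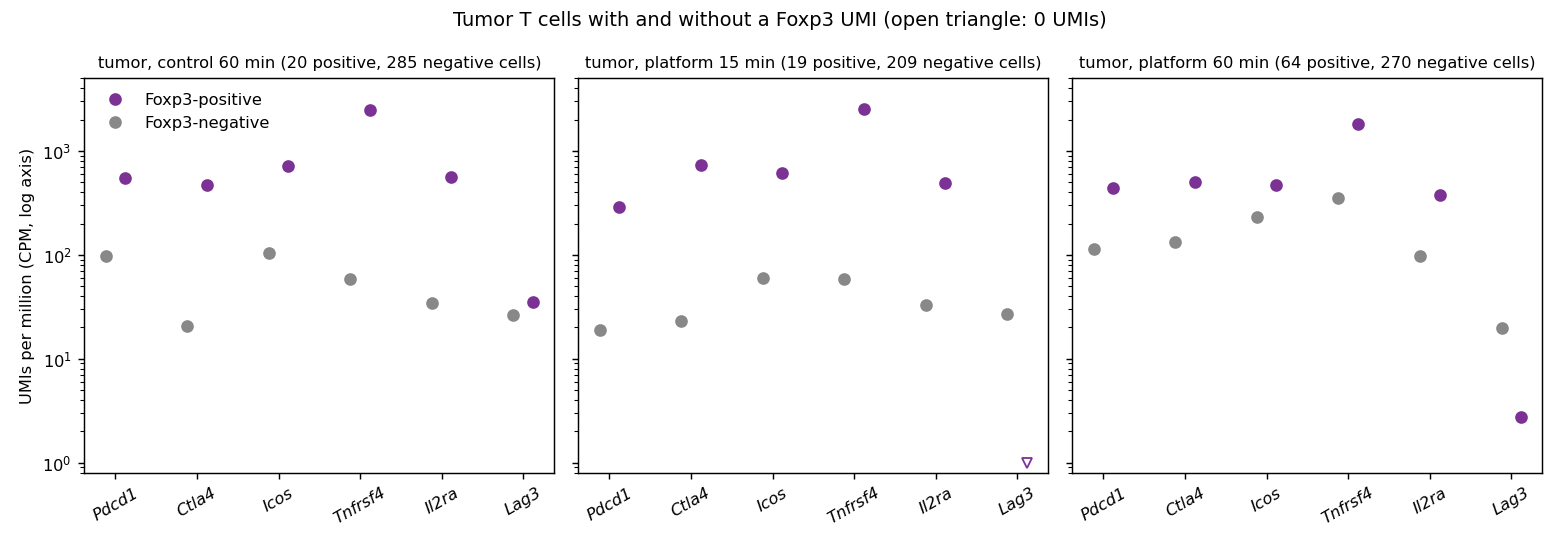
CPM (vertical log axis) of 6 genes in tumor T cells with (purple) and without (grey) a Foxp3 UMI, 1 panel for each tumor library, with the open triangle marking 0 UMIs. Tnfrsf4, Ctla4, Il2ra, Pdcd1 and Icos are higher in the positive cells of every library, and Lag3 is not.

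Foxp3-positive cells contributed 3.27, 4.49 and 17.1% of the UMIs of tumor T cells, but 58.8, 67.0 and 51.8% of those of Tnfrsf4, 43.5, 59.6 and 43.7% of Ctla4, 35.6, 41.3 and 44.0% of Il2ra and 15.99, 41.5 and 44.1% of Pdcd1. The other genes with the highest levels in these cells relative to Foxp3-negative cells, ranked by the lowest log2 ratio over the 3 libraries, were Il1r2 (3.52), a decoy receptor of interleukin-1, Tff1 (3.28), Sdcbp2 (3.23), Il10 (3.12), the suppressive cytokine, Dusp14 (2.54), Ikzf4 (2.54), Tctex1d2 (2.41), Slc15a3 (2.39), Klrg1 (2.36) and Ass1 (2.33). They are named by rank and were not tested.

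Cells with several of the 8 genes were most frequent in the tumor 60 min library. At least 1 gene had a UMI in 58.8, 35.0 and 74.8% of kidney T cells and in 66.6, 52.6 and 77.5% of tumor T cells. At least 4 genes had one in 2.14, 0 and 3.99% of kidney T cells, where 0 of 120 allows a share of up to 2.50%, and in 8.52, 9.65 and 29.9% of tumor T cells. No cell held all 8. In the kidney 60 min library, 65 of 85 Ctla4-positive cells and 59 of 77 Pdcd1-positive cells also held an Icos UMI. Icos was in 315 of all 476 T cells of that library, and 56.2 and 51.0 cells would hold both if the genes were independent, so these counts lie not far above the base share. In tumor T cells at 60 min, 107 of 128 Ctla4-positive cells and 93 of 110 Pdcd1-positive cells held Tnfrsf4. Tnfrsf4 was in 165 of all 334 T cells of that library, and 63.2 and 54.3 cells would hold both if the genes were independent.

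Outside the T cell gate the genes differed in how far they kept to T cells. Of all UMIs in kept tumor cells, T cells held 95.1% for Ctla4, 93.0% for Foxp3, 91.9% for Icos, 90.9% for Tigit, 82.9% for Tnfrsf4, 68.7% for Il2ra, 54.8% for Pdcd1 and 9.83% for Lag3. In kidney they held 86.2% for Pdcd1, 84.1% for Icos and 82.7% for Ctla4, and 22.4% for Il2ra and 7.79% for Lag3. Levels by class are means over the libraries with at least 20 cells of the class, with the range over libraries as the spread.

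**Figure D4:**
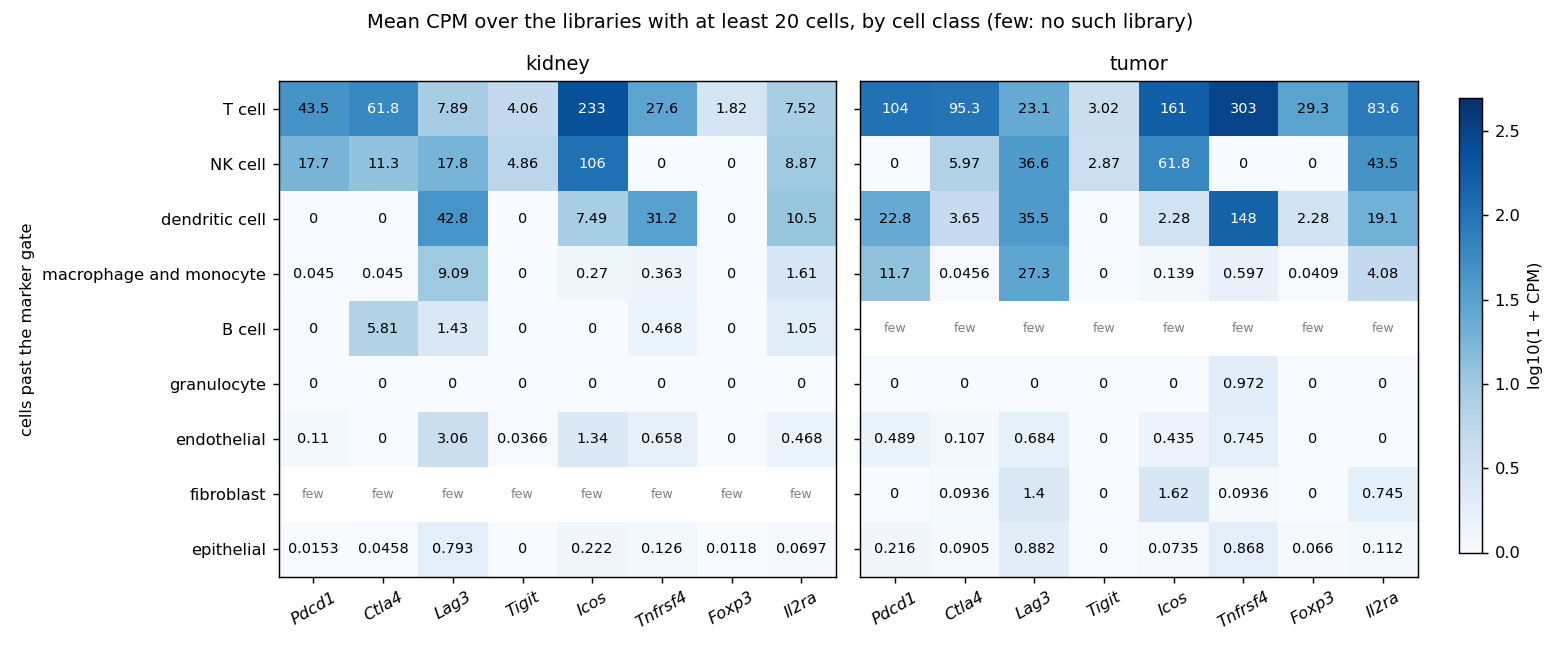
Mean CPM of each gene (columns) in cells of each marker class (rows) in kidney (left) and tumor (right), printed in the cell and shaded on a log scale; few marks classes with no library of 20 cells. T cells have the highest mean for 7 of 8 genes in the tumor, and the mean of Lag3 is higher in dendritic, NK and macrophage classes than in T cells. In kidney the means of Tnfrsf4 and Il2ra are also higher in dendritic than in T cells, and those of Tigit and Il2ra higher in NK cells.

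Foxp3 was near 0 outside T cells, at 0 to 0.0118 CPM in the other kidney classes. In the tumor the next highest means were 3.98 CPM in cells past no gate (6 UMIs) and 2.28 CPM in dendritic-gated cells (1 UMI). Ctla4 was next highest in NK-gated cells (11.3 CPM in kidney, range 0 to 24.1, and 5.97 CPM in the tumor) and, in kidney, in B cells (5.81 CPM, range 3.75 to 9.83). The B cell values rested on few cells. In the control, 15 min and 60 min libraries, 4, 3 and 21 UMIs lay in 0.355% of 282, 0.461% of 217 and 1.23% of 571 B cells. The lowest kidney T cell library, at 25.1 CPM, was just above the highest NK library. Icos was second in NK-gated cells of both tissues (106 and 61.8 CPM), whose ranges reached those of T cells. These NK-gated cells hold fewer than 2 CD3 UMIs, and type 1 innate lymphoid cells were not separated from them. Il2ra in kidney was at 7.52 CPM in T cells (2.95 to 10.3), below dendritic-gated cells at 10.5 CPM (6.07 to 15.0). NK-gated cells were at 8.87 CPM (0 to 16.9) and cells past no gate at 12.6 CPM (0 to 22.4). These ranges overlapped.

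Tnfrsf4 was high in dendritic-gated cells too, at 31.2 CPM in kidney (19.97 to 42.5) against 27.6 CPM in T cells, a difference within the spread, and at 148 CPM in the tumor (82.1 to 214) against 303 CPM (138 to 602). The kidney dendritic value rested on few cells, since 7 UMIs lay in 4.35% of 23 cells of the control and 8 in 2.60% of 77 cells of the 60 min interval. Lag3 was highest in dendritic-gated cells of kidney (42.8 CPM, 24.97 to 60.7). In the tumor it was at 36.6 CPM in NK-gated cells (18.6 to 52.5) and at 35.5 CPM in dendritic-gated cells, which had at least 20 cells only in the control and 60 min libraries. In these, dendritic-gated cells were at 54.6 and 16.4 CPM and NK-gated cells at 38.7 and 18.6 CPM, so the order of the classes is not settled. Macrophage- and monocyte-gated cells held it at 9.09 CPM in kidney (7.85 to 9.73) and at 27.3 CPM in the tumor (21.1 to 35.5), ranges that overlapped those of T cells at 7.89 CPM (5.75 to 12.0) and 23.1 CPM (17.0 to 26.6). Pdcd1 had 388 UMIs in tumor macrophage- and monocyte-gated cells, 11.7 CPM (7.94 to 13.7), and 0.0450 CPM in those of kidney. Epithelial cells held Pdcd1 at 0.0153 and 0.216 CPM, so the tumor myeloid level was above the level in a class that should lack the gene.

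Several ligands were highest outside T cells, and others were also in T cells. Cd86, a ligand of CTLA-4 and CD28, was highest in macrophage- and monocyte-gated cells (427 CPM in kidney and 342 CPM in the tumor), and Cd80 was at 93.9 CPM in tumor dendritic-gated cells. Cd274, which encodes PD-L1, was highest in granulocytes of kidney (222 CPM, on 27 UMIs). Its highest tumor mean was in dendritic-gated cells (78.4 CPM, 63.8 to 93.1). Cells past no gate were close (74.8 CPM, 68.4 to 87.0), so that order is not settled. The mean of Icosl was highest in dendritic-gated cells (70.8 and 41.0 CPM). In the tumor their range (27.3 to 54.7) overlapped that of macrophage- and monocyte-gated cells (26.5 to 36.6). The mean of Tnfsf4, the ligand of OX40, was also highest in dendritic-gated cells (3.75 and 30.1 CPM, on 3 and 14 UMIs). Tumor NK-gated cells held Tnfsf4 at 28.0 CPM (8.75 to 44.2, 19 UMIs), within the dendritic range (5.47 to 54.6). Pdcd1lg2, which encodes PD-L2, was at 48.5 CPM in tumor T cells (25.7 to 60.8, 327 UMIs), within the range of NK-gated cells at 51.7 CPM (26.3 to 68.1). Lgals3, whose product galectin-3 binds glycans of LAG-3 among other proteins, was at 977 CPM in tumor T cells, after NK-gated cells (1815 CPM) and macrophage- and monocyte-gated cells (1166 CPM). Il2 was highest in T cells themselves, at 24.2 CPM in kidney (13.3 to 30.7) and 15.4 CPM in the tumor (0.770 to 30.7).

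Over the 57 pools of class and library with at least 20 cells, the genes most like each member in log2(CPM + 1) were listed by Pearson correlation. The pools share libraries and depth, so these values are descriptions only. Icos was most like Cxcr6 (r = 0.96), Trbc2 (0.94) and Skap1 (0.93), Ctla4 like Cd3g (0.86), Plcxd2 (0.84) and Trac (0.83), and Il2ra like Tnfrsf9 (0.83). Tnfrsf4 and Foxp3 were the only members in each other's top 3 (r = 0.83). Pdcd1 was most like Il7r (0.75) and Lag3 like Gm5547 (0.81), and Tigit, on few UMIs, like Gm29243 (0.88).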

How the data were processed

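Single cells of 3 kidney and 3 tumor libraries were measured by droplet 3′ sequencing. The authors deposited UMI counts per gene and cell, made with Cell Ranger 3.1.0 against mm10 and aggregated with depth equalised between libraries. The counts of a library can therefore lie below its original depth, and low genes can lose UMIs. Groups came from the sample labels, and columns of cells were assigned to libraries by barcode suffix. Cells were kept within the study's limits, 200 to 3000 genes and at most 50% mitochondrial UMIs in kidney, and 200 to 4000 genes and at most 25% in the tumor. No doublet caller was run, and cells past several marker gates were left out as an alternative.

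UMIs of cells with at least 2 CD3 UMIs were pooled per library and scaled to CPM. Genes needed 20 UMIs. With 1 library per condition no test was run and no p-value is given. Intervals of 95% (exact Poisson, Clopper-Pearson binomial, and conditional for ratios) cover counting error only, and a count of 0 was given a limit of 3 counts. Shares were also computed after thinning to 1000 UMIs. Classes needed 20 cells. The members, gene lists and comparisons were chosen with earlier results of these data known. All members are named, with at most 4 genes of each other list, those of the largest tissue ratio. The genomic neighbours, Il2rb, the stress genes and the ligands described by class were named outside this rule, after their values were seen. Scripts used Python 3.11.15, numpy 2.4.6, scipy 1.17.1, pandas 2.3.3 and matplotlib 3.10.9, and were tested on simulated data. Promoter windows came from RefSeq and positions from GENCODE.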

Additional observations from a re-analysis of the deposited data

Results flagged for a closer look

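The 15 min interval differed from the control in opposite directions in the 2 tissues for Ctla4 and Tnfrsf4. For Ctla4 the ratio was 0.335 in kidney T cells and 1.55 in tumor T cells. For Tnfrsf4 it was 0.222 in kidney and 1.22 in the tumor. With 1 library per condition the difference between tissues was not tested.

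Cells that passed the T cell gate but lay outside the limits on genes or mitochondrial UMIs were not used, and they held 629 UMIs of the 8 genes in kidney (107 cells) and 525 in the tumor (97 cells). Of these cells, 72.9% in kidney and 64.9% in the tumor also passed the gate of a class other than NK cells.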

How the results depend on the processing

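The count of genes higher in tumor T cells was 4 and ranged from 3 to 5 over 18 alternatives. Leaving out 1 library at a time gave 4 to 5, with 5 when the tumor 15 min library was left out and Pdcd1 joined, as it did without both 15 min libraries. The count of 3 came without Trdc-positive cells, where the log2 ratio of Lag3 was 0.70. The kidney count for 60 min against control went from 1 to 0 with no filter on cells, with a CD3 gate of 1 UMI, without cells past another gate, per 1000 CD3 UMIs and with the mean of each cell's CPM. The tumor count for 15 min against control went from 1 to 2 without cells past another gate, where Ctla4 was also past 2-fold. The cause of these changes was not tested. The other counts ranged from 4 to 5 (kidney 15 min against control), 5 to 5 (kidney 60 against 15 min), 5 to 6 (tumor 60 min against control) and 6 to 7 (tumor 60 against 15 min). The log2 tissue ratios of Ctla4, Tigit and Icos, which met no rule, changed sign in 1, 1 and 2 alternatives. Thinning to 1000 UMIs moved 44 of 48 shares outside their intervals. Alternatives without Trdc-positive or NK-gated cells, with a T cell receptor UMI required, or without both 15 min libraries were chosen after seeing the data. No paired analysis was possible because each condition has 1 library and the result comes from no test. Depth limits Tigit, and Foxp3, Lag3 and Il2ra in kidney.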
